A study of Mus musculus with 5 samples.

Results

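Shared sites that ranked higher after 4-OHT were DNase I hypersensitive sites found in every distinct peak list of the series whose peak score stood higher in the order of a treated library than in that of a vehicle library. They numbered 3014 of the 52181 sites in the series. Percentile ranks (0 for the weakest site, 1 for the strongest) were taken over the 23940 sites that had 1 peak in each list and a score under 3100, where the caller's scores pile up. A site was a member when its rank after treatment exceeded its vehicle rank by 0.15 or more. That rule took 12.6% of the ranked sites. The members were thus chosen by their vehicle and treated scores, and these values are given as a description and support no test.

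The series profiled mouse 3T9 fibroblasts, a fibroblast line immortalised by serial passage of embryonic cells (E13.5, mixed strain). All groups carried floxed c-myc alleles (c-mycflox/flox) and MycER, introduced by infection in vitro. MycER joins Myc to the hormone-binding part of the estrogen receptor, so that 4-hydroxytamoxifen (4-OHT) activates it. Whether the floxed alleles had been deleted, which promoter drove MycER and whether the line was a clone are not given in the sources used here. The vehicle group received ethanol (0 h) and the treated group 400 nM 4-OHT, for 4 h by the titles. Each had 2 libraries, and 1 input of sonicated genomic DNA was not analysed here.

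The 4 deposited peak lists held 3 distinct lists. List V is the vehicle library without a replicate letter, with 35149 peaks. List T is the 4-OHT library with the letter B, with 47621 peaks. List D, with 44956 peaks, was deposited with identical positions and scores both as the 4-OHT library without a letter and as the vehicle library B. Its treatment is therefore not known. Treatment and replicate letter cannot be told apart between V and T, and with 1 list for each no replicate error exists and no p-value is given. The lists hold no read counts, and the depth behind a score is unknown.

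DNase I hypersensitive sites are stretches where nucleosomes are displaced, which in fibroblasts include active promoters, enhancers and insulators. Myc binds DNA with its partner Max at E-box sequences, and it is known for occupying promoters and enhancers that are already accessible. By the rule, every member had a peak in the vehicle list. Myc binding and promoter position were not analysed here. The deposited peaks are on mm9 and carry no gene names, so the sites are named by position.

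The members were mostly weak sites in the vehicle list that stood near the middle of the order in the treated list. Their scores in list V ran from 80.01 to 795, with a median of 130 and quartiles of 99.8 and 190. In list T the same sites ran from 191 to 2780, with a median of 418 and quartiles of 313 and 631. Over all ranked sites the medians were 256 in V and 455 in T. The score in T divided by that in V had a median of 3.06 at the members and 1.65 over all ranked sites, so list T scored higher at most sites and ranks were taken within lists. The lowest ratio at any member was 2.36.

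In rank terms the members had medians of 0.208 in V and 0.467 in T. Sites with a T rank at least 0.15 below their V rank mirrored this, with medians of 0.468 in V and 0.213 in T. Of the 3014 members, 2623 (87.0%) lay in the lower part of the vehicle order, at a rank under 0.5, and 758 (25.1%) scored under 100 in V, close to the lowest score of 80.01. At the other end, 300 members (9.95%) scored over 1000 in T, against 24.4% of all ranked sites. A rank limit bounds where members can lie, since no site above a vehicle rank of 0.85 can gain 0.15. The vehicle order was cut into 5 equal groups, from the weakest to the strongest. Members made up 30.5%, 18.2%, 9.88%, 4.09% and 0.230% of their ranked sites. With the T order cut likewise, sites that ranked lower made up 29.7%, 19.1%, 10.0%, 3.51% and 0.125%. The profile was thus not particular to the members.

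**Figure D1:**
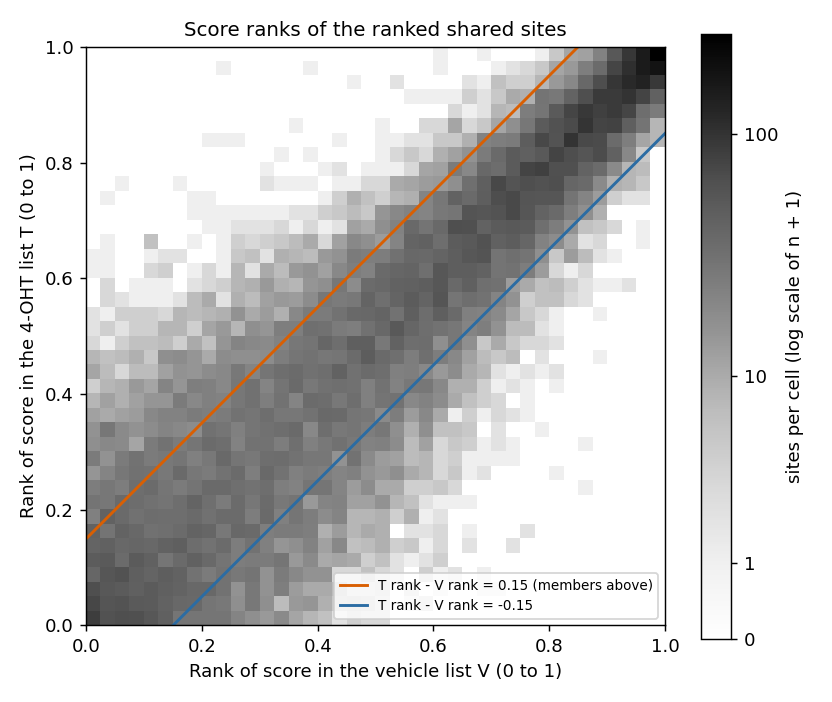
Score rank in the vehicle list V (horizontal axis, 0 to 1) against score rank in the 4-OHT list T (vertical axis, 0 to 1) for the 23940 ranked sites, with the grey scale giving sites per cell on a log scale of n + 1. The 3014 members lie above the orange line, mostly at vehicle ranks under 0.5, and 2990 sites lie below the blue line.

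The rise in rank was matched by a fall of the same extent elsewhere in the order. The rank in T was lower than that in V by 0.15 or more at 2990 sites (12.5% of those ranked). The mean rank is equal in all lists by construction, but the counts past the limit are not bound to be equal. Differences of this size were about as frequent in either direction for every pair of lists. D ranked above V by 0.15 or more at 2852 sites (11.9%) and below it at 2884 (12.0%). T ranked above D at 2459 sites (10.3%) and below it at 2452 (10.2%). The pair D and V is a comparison of treatment under one label of D and of vehicle libraries under the other, and likewise for T and D. The number of members is therefore of the size that any 2 of these lists gave. Across the ranked sites, Spearman's rho was 0.882 between V and T, 0.888 between V and D and 0.906 between D and T, as a description over sites that share their libraries.

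At most members the unassigned list D stood between the others. The median D rank of the members was 0.380, and their median D score was 346 (quartiles 234 and 544). D lay strictly between V and T at 1909 members (63.3%, Wilson 95% interval 61.6% to 65.0%), at or above T at 696 (23.1%, 21.6% to 24.6%) and at or below V at 409 (13.6%, 12.4% to 14.8%). Over all ranked sites these shares were 35.3%, 50.1% and 50.2%, of which the last 2 can hold at once where T ranked below V, and D was strictly between at 65.2% of the sites that ranked lower. Here and below, such intervals cover only the counting error, and they treat sites as independent, which neighbours are not. On a scale where V is 0 and T is 1, the median place of D was 0.609 (quartiles 0.218 and 0.967). At the sites that ranked lower in T the same measure was 0.560 (0.199 and 0.921). The choice of members favours low values in V and high values in T, so any other list would tend to fall between them without any treatment effect.

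**Figure D2:**
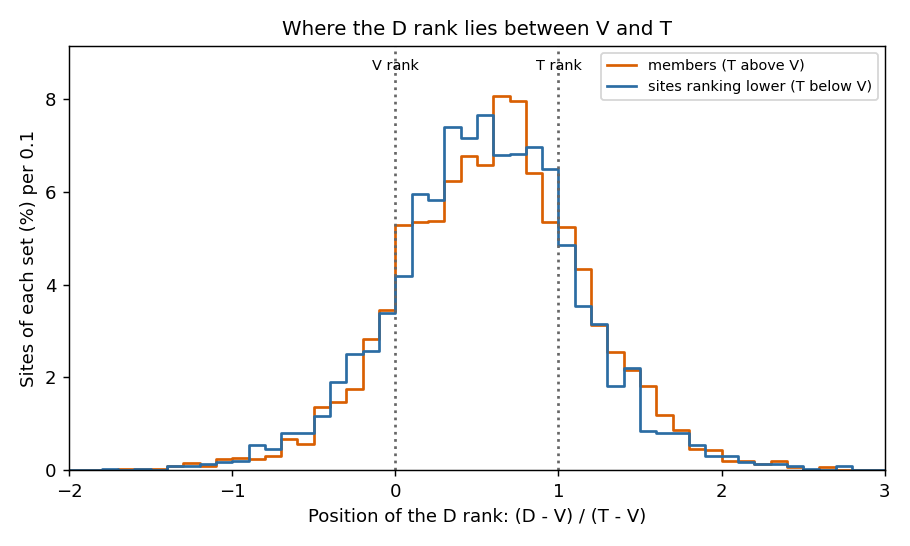
Place of the D rank on a scale where 0 is the rank in V and 1 the rank in T (horizontal axis), with the percentage of each set of sites per step of 0.1 (vertical axis), for members in orange and for sites ranking lower in T in blue. Both curves peak between V and T, with medians of 0.609 and 0.560, and 3 sites in all lie outside the plotted range.

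D was nearer to T than to V at 1731 members, or 57.4% (55.7% to 59.2%). This share was 54.6% at the sites that ranked lower (52.8% to 56.4%) and 53.3% over all ranked sites (52.7% to 53.9%). D thus leaned towards T in each set. Read with its 4-OHT label, D also ranked at least 0.15 above V at 1389 members (46.1%). Over all ranked sites, D ranked that far above V at 11.9%, and these 1389 members are 5.8% of them. Read with its vehicle label, D left 1002 members (33.2%) at which T ranked at least 0.15 above D as well as above V. Over all ranked sites, T ranked that far above D at 10.3%, and these 1002 members are 4.19% of them. The mirror counts for sites ranking lower were 1285 (5.37% of the ranked sites) and 1027 (4.29%). Since D shares V with one comparison and T with the other, the 46.1% and the 33.2% follow in part from the choice of members. Neither assigns a label to D.

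Members with D at or below V had fewer close neighbours than those with D at or above T. Another site lay within 5 kb of 387 of the 696 members with D at or above T (55.6%, 51.9% to 59.3%). This held for 159 of the 409 members with D at or below V (38.9%, 34.3% to 43.7%). Members with D between the others were intermediate, at 52.8% (50.5% to 55.0%). Over all ranked sites the share also moved with D rank, at 42.3%, 48.3%, 51.6%, 52.4% and 46.7% in 5 equal groups from the weakest to the strongest. The interval of the class with D at or below V includes the 42.3% of the weakest group, which holds scores of 80.01 to 214 in D. The median number of other sites within 1 Mb was 82 with D at or above T, 75 with D between and 59 with D at or below V. Median scores of the first class were 120 in V, 455 in D and 363 in T. Those of the class with D at or below V were 139, 191 and 411.

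A pair of members stood apart for a high score in T alone. The largest rank difference of all was at chr11:5970124-5972400, which scored 135 in V, 183 in D and 2147 in T. Its rank was 0.228 in V, 0.148 in D and 0.955 in T. The called interval was 870 bp in V, 850 bp in D and 2277 bp in T. The site at chr6:52911786-52913234 had scores of 193 in V, 272 in D and 2309 in T, with widths of 829, 987 and 1449 bp. List T was the high one at both, and V and D lay close together. Of all 23940 ranked sites, these 2 were those with a score of at least 2000 in T and under 500 in D, a limit chosen after the values were seen. No ranked site had at least 2000 in D and under 500 in T (0 sites), nor at least 2000 in V and under 500 in T (0 sites). Scores in V ran lower, with a median T to V ratio of 1.65 over all ranked sites. The count for V is therefore no mirror of those for T. Against V, 9 members scored at least 2000 in T and under 500 in V. If D is a 4-OHT library, these sites were high in 1 of 2 treated libraries.

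The other members with the largest rank differences had D well above V. At chr15:76202229-76205505, the score was 88.9 in V, 531 in D and 956 in T. At chr6:145811058-145813131, it was 93.4 in V, 729 in D and 1027 in T. The site at chr18:36919156-36920724 scored 128 in V, 822 in D and 1394 in T. In these 3 sites V was lowest and T highest, and D was nearer to T in rank. The score at chr2:181089907-181092298 was 80.6 in V, 569 in D and 652 in T. At chr5:24008430-24011783 they were 89.6, 392 and 729 in the same order. At chr14:9250744-9251857 they were 86.4, 309 and 681, so that D lay midway in rank. The remaining sites of the first 10 were at chr18:36048496-36050061, at chr2:25696927-25698616 and at chr7:53339696-53342567. All 10 scored at most 140 in V, and their T minus V rank differences ran from 0.594 to 0.726. D was nearer to T at 6 of the 10.

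Wider intervals went with the largest rank differences. The interval in T was 2 or more times as wide as that in V at 8 of these 10 sites. At chr5:24008430-24011783, it was 612 bp in V, 1891 bp in D and 3354 bp in T. At chr15:76202229-76205505, it was 1034 bp in V, 2324 bp in D and 3247 bp in T. At chr7:53339696-53342567, it was 707, 1063 and 2872 bp. The V interval at such sites is a small part of the merged site, and reads were not used, so which part gained signal is not shown.

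Over all members, width moved with score, as both come from the same peak calls and so count as used by the rule. The median width of the members was 973 bp in V, 1143 bp in D and 1154 bp in T. Over all ranked sites it was 1129, 1259 and 1208 bp. T was wider than V at 2484 members (82.4%), against 67.1% of all ranked sites and 47.4% of those ranking lower. The T interval held the whole V interval at 1660 members (55.1%), while the reverse held at 232 (7.70%). These shares were 39.3% and 15.2% over all ranked sites, and 23.3% and 26.5% at those ranking lower. A doubling of width or more was rare, at 108 members (3.58%), yet 108 of the 200 ranked sites with such a doubling were members. Centres moved little, with a median distance between the T and V centres of 64.5 bp at the members and 57.0 bp over all ranked sites.

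Members that exceeded the vehicle list most in both D and T are the ones at which the 2 lists carrying a 4-OHT label differed together from V. The first was chr18:36048496-36050061, with 81.4 in V, 680 in D and 633 in T, and ranks of 0.00764, 0.614 and 0.618. The next not yet described was chr9:121205828-121208321, with scores of 105 in V, 992 in D and 737 in T. At chr9:103013280-103015833, the scores were 88.1, 852 and 531. V was far below the other lists at each of these sites, and D exceeded T at all 3 in score. The site at chr11:97492704-97493986 scored 91.1 in V, 575 in D and 542 in T. That at chr5:110224883-110225938 scored 92.3, 780 and 510, at similar widths in each list (868, 1010 and 999 bp). The others of these 10 were at chr10:80586613-80589299 and at chr2:180171341-180173324, besides 3 already given. The D score exceeded the T score at 7 of the 10, and the D rank exceeded the T rank at 4. Of the 10, 4 also belonged to the 10 with the largest T minus V difference.

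**Figure D3:**
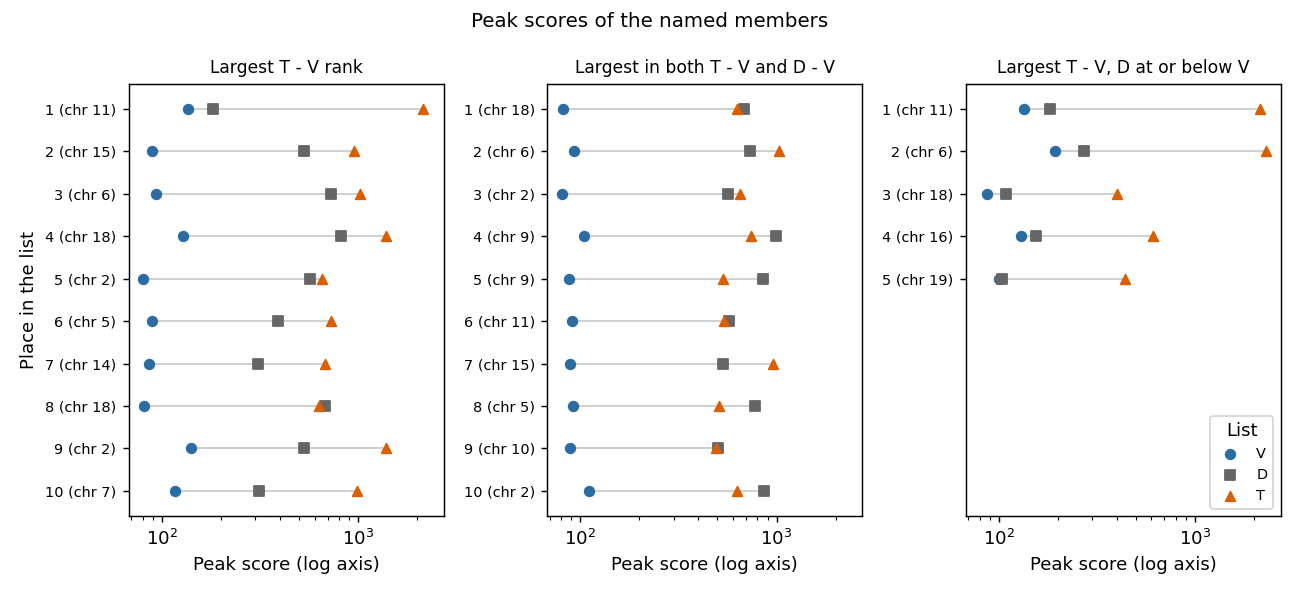
Peak scores (horizontal log axis) in V (blue circles), D (grey squares) and T (orange triangles) for the named members, each row a site labelled by its place and chromosome, in 3 panels by naming rule. V is lowest in every row of the first 2 panels, D lies near T in the second, and D lies near V in the third.

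Where D did not exceed V in rank, T was by that choice the high list alone. After the sites on chromosomes 11 and 6 described above, the largest differences of this kind were at chr18:5141100-5142349, with 87.5 in V, 109 in D and 403 in T, and at chr16:97781841-97783422, with 130, 155 and 612. The site at chr19:46496703-46498070 had 100.4 in V, 104 in D and 443 in T. The D scores of these 3 sites were 1.25, 1.19 and 1.03 times those of V. Their choice by a D rank at or below the V rank favours ratios under the median of 1.80 over all ranked sites.

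The members that ranked highest in T were strong sites in every list. The site at chr6:85381241-85383299 scored 741 in V, 2010 in D and 2780 in T. That at chr8:119895363-119897742 scored 795, 2949 and 2767, and that at chr2:128926213-128927698 scored 756, 2067 and 2764. Those at chr4:56545476-56547547 and chr14:121434029-121437292 completed the 5, with T scores of 2595 and 2561. Their vehicle ranks were 0.814 to 0.833, so their rank differences (0.154 to 0.180) were close to the largest possible. D was above V in rank at each of the 5, by 0.0723 to 0.155.

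Sites on either side of the limit had like values. The 3 members just inside it, at chr13:52098339-52100047, chr11:20729746-20732337 and chr1:172841873-172844136 scored 115, 413 and 557 in V and 281, 1191 and 1610 in T. The 3 sites just outside it, at chr8:122127534-122129829, chr15:53732529-53734883 and chr17:29961484-29962614 scored 661, 317 and 110 in V and 1956, 888 and 271 in T. The rank differences were 0.150 in all 6 after rounding.

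Members lay somewhat more often in regions dense with accessible sites. The number of other sites within 1 Mb had a median of 74 at the members, 70 over all ranked sites and 66 at the sites that ranked lower. With the ranked sites cut into 5 groups by this density, from 0 to 39 neighbours up to 117 to 331, members were 10.3% (9.49% to 11.2%), 12.2%, 13.2%, 12.4% and 14.9% (14.0% to 16.0%) of the ranked sites. The sites that ranked lower ran the other way, from 14.3% (13.3% to 15.3%) to 10.3% (9.45% to 11.2%). The gradient was steeper between D and V, where D ranked higher by 0.15 or more at 8.71% of the sites in the sparsest group and 16.0% in the densest. Between T and D it was opposite in direction, with T ranking higher at 13.6% of the sparsest and 7.90% of the densest. With D as a 4-OHT library, both treated lists ranked above V more often in the densest group than in the sparsest. With D as a vehicle library, the gradient of T is upward against one vehicle list and downward against the other.

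**Figure D4:**
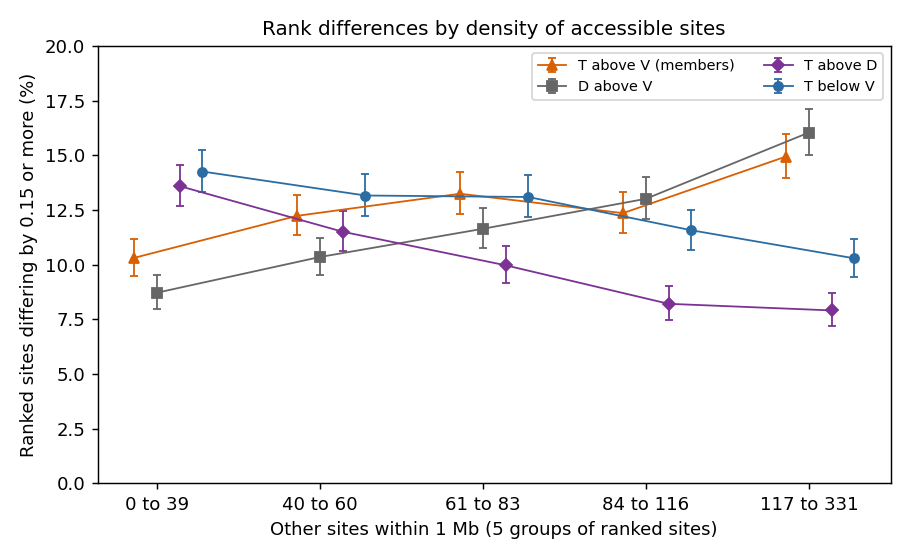
Percentage of ranked sites that differ by 0.15 or more in rank (vertical axis) by the number of other sites within 1 Mb (horizontal axis, 5 groups of ranked sites), for T above V (orange, the members), D above V (grey), T above D (purple) and T below V (blue), with bars for Wilson 95% intervals. The shares for T above V and D above V rise to 14.9% and 16.0% in the densest group, while that for T above D declines to 7.90%.

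Close neighbours showed the same lean. Another site lay within 5 kb of 1553 members (51.5%, 49.7% to 53.3%), against 48.3% of all ranked sites (47.6% to 48.9%) and 47.1% of those ranking lower. Within 5 groups of D rank, which hold strength alike, the surplus of members over ranked sites was 2.95 percentage points in place of 3.26. A site present in D and T but not in V lay within 10 kb of 539 members (17.9%, 16.6% to 19.3%), against 15.3% of all ranked sites (14.8% to 15.8%) and 14.2% of those ranking lower. A site present in V but not in T lay within 10 kb of 2.55% of the members and 2.56% of all ranked sites. Both kinds of site are read from the lists that chose the members, so these shares are not independent of the choice. The kind lacking in T was defined without regard to D, so it is no mirror of the other.

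Neighbouring members were only a little more frequent than members at large. The ranked site next to a member on the chromosome was also a member in 14.6% of cases (13.8% to 15.6%). Members made up 12.6% of the sites in such pairs. Each pair was counted from both sides, so 441 pairs of members gave 882 cases, and the intervals of this paragraph are too narrow. The site next to a member ranked lower by 0.15 or more in 10.7% of cases, against 12.5% at large. Next to a site ranking lower, the neighbour also ranked lower in 15.2% of cases, against the same 12.5%. At gaps from 2 to 5 kb the share of members next to members was 17.2% (14.2% to 20.6%), and at gaps of 100 kb or more it was 11.8% (9.95% to 13.9%). Members made up 13.2% and 11.6% of the sites in pairs at these gaps. The share did not fall steadily with the gap, at 14.5% from 5000 to 10000 bp and 15.8% from 10000 to 30000 bp. Across all 23920 pairs of neighbours the T minus V differences had a Pearson's r of 0.0556, a weak relation over pairs that share libraries. Most members (2201) stood alone in the order of ranked sites, and 813 (27.0%) lay in 372 unbroken stretches of 2 to 4 members. Of the sites that ranked lower, 27.8% lay in stretches. The neighbour of a site ranking lower also ranked lower at 12.9% of gaps under 2 kb and 17.0% of gaps of 100 kb or more, where members had a member as neighbour at 15.4% and 11.8%.

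Stretches of 4 members in a row occurred 12 times. They were not particular to the members, as sites ranking lower formed 13 stretches of 4 and 1 of 6. The most compact was at chr2:127126183-127162889, where its 4 sites were the only sites of any list, with scores of 82.4 to 660 in V and 287 to 2147 in T. At chr5:125437527-125521463, 4 members among 16 sites scored 94.9 to 218 in V, 389 to 794 in D and 446 to 681 in T. D ranked at least 0.15 above V at all 4 of these sites. At chr16:92929696-92998506, in contrast, D did so at 0 of the 4, with D minus V between −0.0303 and 0.0988. The other compact stretches were at chr4:155034338-155114576 and at chr5:53747910-53836032, where D did so at 1 and 3 of the 4.

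Members were unevenly spread over chromosomes, within a narrow range. The share of ranked sites that were members was highest on chromosome 10 (183 of 1177, 15.5%, 13.6% to 17.7%), chromosome 5 (236 of 1531, 15.4%, 13.7% to 17.3%) and chromosome 11 (285 of 1866, 15.3%, 13.7% to 17.0%). It was lowest on X (36 of 417, 8.63%, 6.30% to 11.7%) and on chromosome 15 (118 of 1222, 9.66%, 8.12% to 11.4%). These chromosomes were picked out after their shares were seen. The median number of other sites within 1 Mb was 67, 90 and 101 on chromosomes 10, 5 and 11. It was 22 on X and 100 on chromosome 15, so the shares of these chromosomes did not follow density throughout. The sites that ranked lower were fewer than average on chromosomes 10, 5 and 11 (10.9%, 10.4% and 10.6%) and more than average on chromosome 15 (15.5%, 13.6% to 17.7%) and chromosome 14 (16.2%, 13.9% to 18.8%). On X they were 11.8%, so both directions were below the average of all chromosomes there.

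The lists behind these chromosomal shares differed. On chromosome 11, D ranked above V by 0.15 or more at 15.7% of the sites (14.1% to 17.4%) and T above D at 9.27%, where the figures over all chromosomes were 11.9% and 10.3%. Chromosome 10 differed, with D above V at 11.7% and T above D at 13.7% (11.8% to 15.8%), the reverse order. On chromosome 15, D ranked above V at 110 of the 1222 sites (7.52% to 10.7%) and T above V at 118, so both shares were below those over all chromosomes.

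**Figure D5:**
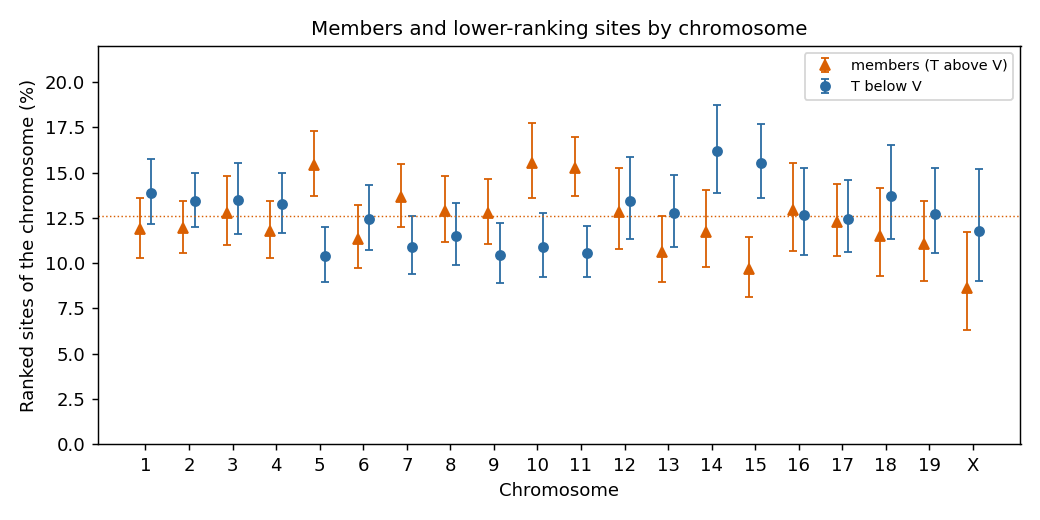
Percentage of the ranked sites of each chromosome (vertical axis) that were members (orange triangles) or ranked lower by 0.15 or more (blue circles), with bars for Wilson 95% intervals and a dotted line at 12.6%, the share of members over all chromosomes. For members, the whole interval lies above the line on chromosomes 5, 10 and 11 and below it on chromosome 15 and X.

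In windows of 5 Mb the share of members varied more, at smaller numbers of sites. Over the 318 windows with at least 30 ranked sites, its median was 12.5% with quartiles of 9.58% and 15.6%. The windows named here were picked after their shares were seen, and their intervals do not allow for that choice. The highest was on chromosome 6 from 140 to 145 Mb, where 14 of 51 sites were members (27.5%, 17.1% to 40.9%) and 2 ranked lower. Next came chromosome 2 from 120 to 125 Mb (13 of 50 sites) and chromosome 11 from 120 to 125 Mb (16 of 62 sites). In the window on chromosome 11, D also ranked above V by 0.15 or more at 13 of the 62 sites. In 5 windows no site was a member. Of these, chromosome 19 from 50 to 55 Mb had 11 of its 42 sites ranking lower (26.2%), and its 0 members of 42 allow a share of up to 7.14% if 3 counts are taken as the limit (Wilson upper bound 8.38%). On X from 45 to 50 Mb, 0 of 44 sites were members, which allows up to 6.82% by the same limit (Wilson upper bound 8.03%).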

How the data were processed

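DNase-seq peak lists on mm9 were used as the authors deposited them, with a position and a score per peak. Per the submitters' processing notes, BWA 0.6.2, SAMtools and MACS 1.4.1 were used, with no settings stated. MACS writes its score as minus 10 times the log10 of a p-value, a meaning inferred here, since the deposited lists have no header. Nuclei were digested at 200 to 300 U/ml DNase I and fragments under 500 bp selected, per the labels' protocols. Use of the input, depth and scaling between libraries are not given in the sources used here. Members were therefore chosen on ranks within a list. Scores, score ratios and score limits set side by side between lists are unscaled and serve as a description only.

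Peaks overlapping by at least 1 bp were merged (the same number of sites as by bedtools 2.31.1). Of 31871 shared sites, 1894 had several peaks in a list, and 6037 others reached 3100. Ties took mean ranks. The merging and ranking code was run on simulated lists that differed by set changes without noise, a check of the code only. The software was Python 3.11.15, numpy 2.4.6, scipy 1.17.1 and pandas 2.3.3. Members, naming rules and alternatives were chosen with earlier results of these data known. Named were the 10 sites with the largest T minus V rank, the 10 with the largest smaller value of T minus V and D minus V, the 5 with the largest T minus V where D was at or below V, the 5 highest in T, 3 on each side of the limit, and the 5 longest stretches (shortest span first). Nothing in the labels says whether libraries came from separate cultures. No mm9 sequence or gene annotation was used here, so planned motif and gene counts were not made.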

Additional observations from a re-analysis of the deposited data

How the results depend on the processing

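The number of members followed the limit set on it, with 4860 sites at a rank difference of 0.10 and 1823 at 0.20. A log2 score ratio at least 1 above its median in place of ranks gave 1049 sites, all of them members. The other settings stayed within 1.5 times the main count, but not with the same sites or share. Keeping ceiling sites gave 2183 sites, 7.28% of those ranked in place of 12.6%, with 2041 members among them, and all sites with a peak in every list gave 2313 (7.26%) with 1963 members. Score divided by width gave 3946 with 2417 members. Leaving out a library also changed which sites passed. Without list D, 2958 sites passed and 2739 were members. With D in place of T, 2852 passed and 1389 were members, and with D in place of V, 2459 passed and 1002 were members. The share with D nearer T stayed between 55.9% and 57.9% in 8 settings. The share with D at or above T was 26.0% at a limit of 0.10, 20.5% at 0.20 and 19.5% over all sites with a peak in every list, in place of 23.1%. The surplus of members near other sites, in dense regions and near sites lacking in V kept its sign in the 4 settings tried for each. No paired analysis was possible because 1 list stands under both treatments and no test was made.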
